A study of Mus musculus with 26 samples.

Results

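The splicing regulators described here are the heterogeneous nuclear ribonucleoproteins (hnRNPs), the serine- and arginine-rich (SR) proteins with their relatives Tra2a and Tra2b, the Muscleblind (Mbnl), Celf and Rbfox families, and Sfpq, Nono, Ptbp1 and Ptbp2. Members were chosen by gene symbol, with earlier results of these data known. Each was counted by the transcript with the most reads among those listed under its symbol. Brown fat counts were deposited as separate tables with no library in common. The knockout table lists 1189 genes, of which 3 are members: Mbnl2, Mbnl1 and Hnrnpl. The IgG table lists 9378 genes, of which 39 are members: 16 hnRNPs, 15 genes under Srsf and Tra2 symbols, 4 of the Mbnl and Celf families, and Sfpq, Nono, Ptbp1 and Ptbp2. Neither table has a row under the symbol Mbnl3, Rbfox1, Rbfox2 or Rbfox3.

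Most genes of higher animals are copied into a precursor RNA whose introns are removed by the spliceosome, and regulators bound to the precursor decide which exons are kept. SR proteins mostly bind exons and recruit the spliceosome, hnRNPs often act as their opponents, and both also accompany mRNA through export, translation and decay. Muscleblind and Celf proteins act as opposing switches in the maturation of heart and skeletal muscle, and Mbnl proteins are trapped on expanded repeats in myotonic dystrophy. IMP2, encoded by Igf2bp2, is a cytoplasmic RNA-binding protein that affects the stability and translation of the mRNAs it binds. The values below count the mRNAs that encode the regulators and measure neither the regulators as proteins nor the splicing of their targets.

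RNA immunoprecipitation and sequencing was done on brown fat, the tissue that burns fuel to make heat through Ucp1. Male littermates on a C57Bl/6J background, either wild type (Imp2+/+) or lacking the gene (Imp2-/-), ate normal chow and spent a night at 4 °C at the age of 10 weeks. The knockout table holds 2 libraries in each of 4 groups: total RNA of the wild type (libraries 16 and 17) and of the knockout (18 and 19), and the RNA that an IMP2 antibody brought down from the wild type (21 and 22) and from the knockout (23 and 24), where the antibody has no target. All libraries of the IgG table are wild type: total RNA (15 and 20), 1 IMP2 immunoprecipitate (25) and 1 control immunoprecipitate with IgG (26). The series has 26 samples, and its 14 liver samples were not analysed here. Whether replicate libraries stem from different mice is not in the labels, so the p-values rest on a spread between libraries that may be technical.

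Libraries of the knockout table summed to 780161 to 4915604 counts over genes, and those of the IgG table to 1321363 to 3749073. Values are CPM, counts scaled to a fixed total over listed genes and adjusted by the trimmed mean of M-values, and CPM of the tables are not on one scale. The knockout table holds a selection of genes: 36 of the 39 members are not listed in it, and 10 of these had a higher CPM than Hnrnpl in total RNA of the IgG table. Sums of brown adipocyte markers were high in every library. They were 36490 to 47470 CPM over 5 of 7 markers in the first table and 21130 to 27000 CPM over all 7 in the second. Single markers varied: Dio2 was at 58.3 CPM in library 18 and 90.1 CPM in library 23. In the other libraries of the knockout table Dio2 was at 350 to 697 CPM. Ppargc1a was at 26.7 to 38.8 CPM in the IgG table. Skeletal muscle markers were also present. Over the 8 of 10 that the knockout table lists, their summed CPM ran from 363 to 10520, and over all 10 in the IgG table from 5940 to 16440. No endothelial, macrophage or neuron marker is listed in the knockout table. Igf2bp2 has no row there either, so its mRNA gives no check of the genotype. Its wild-type counts in the IgG table were low: 20 and 16 in total RNA, 8 with IMP2 and 16 with IgG.

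Mbnl2, a Muscleblind protein that promotes adult splice forms and localizes mRNAs, was lower in the knockout than in the wild type in both kinds of RNA. In total RNA it stood at 285 and 278 CPM in the wild type (libraries 16 and 17) and at 122 and 162 CPM in the knockout (18 and 19). The highest knockout library lay below the lowest wild-type library, and the replicates of the wild type were close together. The group means were 281 ± 4.75 CPM in the wild type and 142 ± 28.9 CPM in the knockout (SD, n = 2 each). The fitted difference of knockout against wild-type total RNA was log2 -0.98 ± 0.17 (SE), which is 1.97-fold lower. By edgeR's quasi-likelihood test with Benjamini-Hochberg adjustment over all 1189 genes, the adjusted p was 0.202, at an unadjusted p of 0.000402 that was the smallest of all genes tested. No gene passed the threshold of 0.05 in this comparison, and at an unadjusted p under 0.05 there were 74 genes higher (6.22%) and 58 lower (4.88%). DESeq2 gave Mbnl2 the same log2 value at an adjusted p of 0.000155, and it called 17 genes lower, 1.43% of those tested, and 18 higher. In bulk tissue, fewer cells of a type and less RNA per cell cannot be told apart.

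Skeletal muscle markers varied between the total RNA libraries. Their sums were 2701 and 10520 CPM in the wild type (16 and 17) and 596.5 and 2471 CPM in the knockout (18 and 19). The replicates of each genotype lay far apart in these sums. The ranges of the sums did not overlap between genotypes, with 2701 CPM in library 16 next to 2471 CPM in library 19. Single markers were split. Tnnt3, Tnni2, Tnnc2 and Tcap were higher in library 19 than in library 16, and Acta1, Ckm, Atp2a1 and Pvalb were lower. Of all genes tested, 21.7% had every knockout library below every wild-type library. The part of muscle RNA in the Mbnl2 difference was not tested, in total RNA or in the precipitates.

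**Figure D1:**
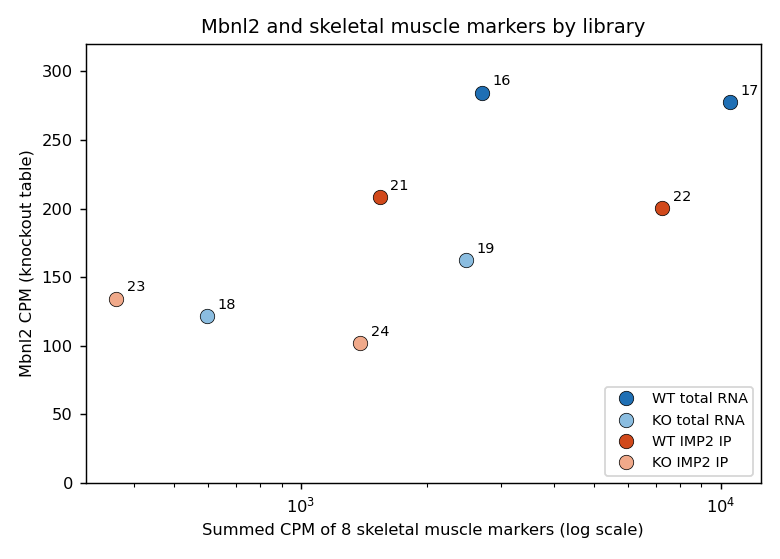
Mbnl2 CPM in the knockout table (vertical axis) against the summed CPM of 8 skeletal muscle markers (horizontal axis, log scale), 1 point per library, coloured by group and labelled with the library number. Muscle sums in total RNA were 2701 and 10520 CPM in the wild type and 596.5 and 2471 CPM in the knockout, and Mbnl2 was at 285 and 278 CPM and at 122 and 162 CPM in the same libraries.

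The other listed members differed less between the genotypes in total RNA. Mbnl1, the close relative that drives the fetal-to-adult splicing switch in muscle, had 407.5 and 389 CPM in the wild type and 284 and 373 CPM in the knockout. Both knockout libraries lay below both wild-type libraries, at a fitted log2 of -0.27 ± 0.16 (edgeR adjusted p = 0.565). Of all genes, 21.7% had every knockout library below every wild-type library, and Mbnl1 and Mbnl2 were the members among them. Hnrnpl, which binds CA-rich RNA and represses or promotes exons by position, had 114 and 150.4 CPM in the wild type and 131.5 and 126 CPM in the knockout. The Hnrnpl groups overlapped, with a log2 of -0.03 ± 0.18 (edgeR adjusted p = 0.954).

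The IMP2 immunoprecipitates showed the same order of genotypes for Mbnl2. Whether they share tissue with the total RNA libraries is not in the labels, so this may not be an independent observation. Mbnl2 stood at 209 and 201 CPM in the wild-type precipitates (21 and 22) and at 134 and 102.2 CPM in the knockout precipitates (23 and 24). Every wild-type library was above every knockout library, as in 26.9% of all genes tested. The difference was log2 0.79 ± 0.18, or 1.73-fold (edgeR adjusted p = 0.129, unadjusted p = 0.00239). No gene passed the threshold with edgeR in this comparison, where 122 genes were higher (10.3%) and 88 lower (7.4%) at an unadjusted p under 0.05. With DESeq2 Mbnl2 passed it at log2 0.78 and an adjusted p of 0.00421, among 61 genes called higher, 5.13% of those tested. Muscle marker sums in these precipitates were 1540 and 7249 CPM in the wild type and 363 and 1384 CPM in the knockout. Mbnl1 and Hnrnpl differed by log2 0.08 ± 0.17 and -0.17 ± 0.18 between the precipitates (edgeR adjusted p = 0.826 and 0.651).

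**Figure D2:**
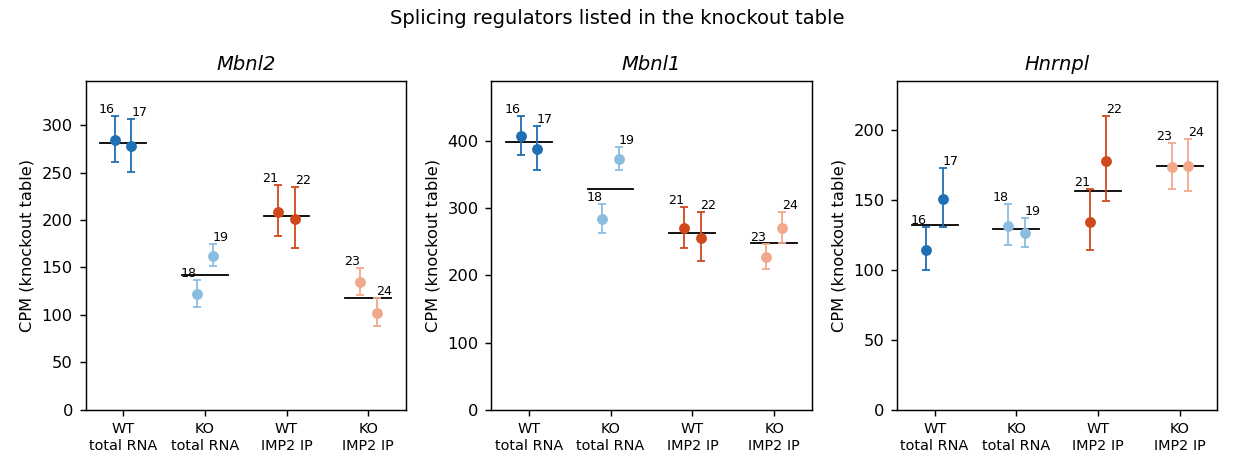
CPM of Mbnl2, Mbnl1 and Hnrnpl in the 8 libraries of the knockout table, with group on the horizontal axis. Points are single libraries with their number, error bars are 95% Poisson counting intervals, and horizontal lines are means of 2 libraries. Mbnl2 lies between 102.2 and 162 CPM in the 4 knockout libraries and between 201 and 285 CPM in the 4 wild-type libraries.

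Recovery is the ratio of an immunoprecipitate to total RNA, and it asks whether the antibody takes an mRNA out of proportion to its abundance. In the wild type, Mbnl1 fell from 398 ± 13.3 CPM in total RNA to 263 ± 9.83 CPM in the IMP2 immunoprecipitate (SD, n = 2 each), with 269.8 and 256 CPM in its 2 libraries. The change was log2 -0.60 ± 0.17 (edgeR adjusted p = 0.0370). Mbnl1 was the member of 3 that passed the threshold, and 12.4% of all genes passed it as lower and 10.0% as higher. The call was lost with library-size scaling (adjusted p = 0.0504) and upper-quartile scaling (0.0832), and when any one of libraries 16, 17, 21, 22 or 24 was left out (0.0514 to 0.155). Those scalings also turned the split of all calls, from 119 higher and 148 lower to 158 and 119 with library size and 214 and 95 with the upper quartile. Mbnl2 was at log2 -0.46 ± 0.18 (edgeR adjusted p = 0.0989), with both precipitates below both total RNA libraries, as for Mbnl1 and for 33.8% of genes. Hnrnpl was at log2 0.23 ± 0.19 (adjusted p = 0.387), and its precipitates held 134 and 177 CPM.

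In the knockout, where the antibody has no target, the order of the 3 genes was alike. Mbnl1 had 228 and 270.1 CPM in the precipitates, a log2 of -0.40 ± 0.16 against knockout total RNA (edgeR adjusted p = 0.0985). Mbnl2 was at log2 -0.27 ± 0.18 (adjusted p = 0.291). Hnrnpl had 173.6 and 174.0 CPM, above both knockout total RNA libraries, as for 32.7% of genes, at log2 0.43 ± 0.17 (adjusted p = 0.0933). No member passed the threshold, which 10.6% of genes passed as higher and 15.7% as lower. Hnrnpl passed it with DESeq2 (log2 0.45, adjusted p = 0.0423), which called 18.5% of genes higher and 20.1% lower. It also passed with library-size scaling (0.56, 0.0341) and upper-quartile scaling (0.60, 0.0218). Library-size scaling moved the calls of all genes from 126 higher and 187 lower to 246 and 145, and the upper quartile to 273 and 130.

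IMP2-dependent recovery is the wild-type ratio over the knockout ratio, and it was tested as an interaction term. It was log2 -0.19 ± 0.25 for Mbnl2, -0.19 ± 0.23 for Mbnl1 and -0.20 ± 0.25 for Hnrnpl, each with an edgeR adjusted p of 0.999. With SEs of this size next to the values, the term does not show whether recovery of these mRNAs depended on IMP2. Over all genes the term ran from -0.30 to 0.81. Neither edgeR nor DESeq2 called a gene, and at an unadjusted p under 0.05 there were 29 genes higher (2.44%) and 0 lower.

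The IgG table sets the IMP2 precipitate beside one made with nonspecific IgG, and it holds all 39 members. All 39 passed the filter on low counts, among 8965 genes tested. Counts per member and library ran from 2 to 894. The 2 total RNA libraries agreed within a median ratio of 1.16 over members, and only Hnrnpd and Hnrnph1 differed 2-fold or more between them. Ratios between single libraries are descriptions of those libraries: the IMP2 and IgG precipitates have no replicate, and the spread is assumed to be that of the total RNA pair. The comparisons share libraries, so their values are given side by side.

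**Figure D3:**
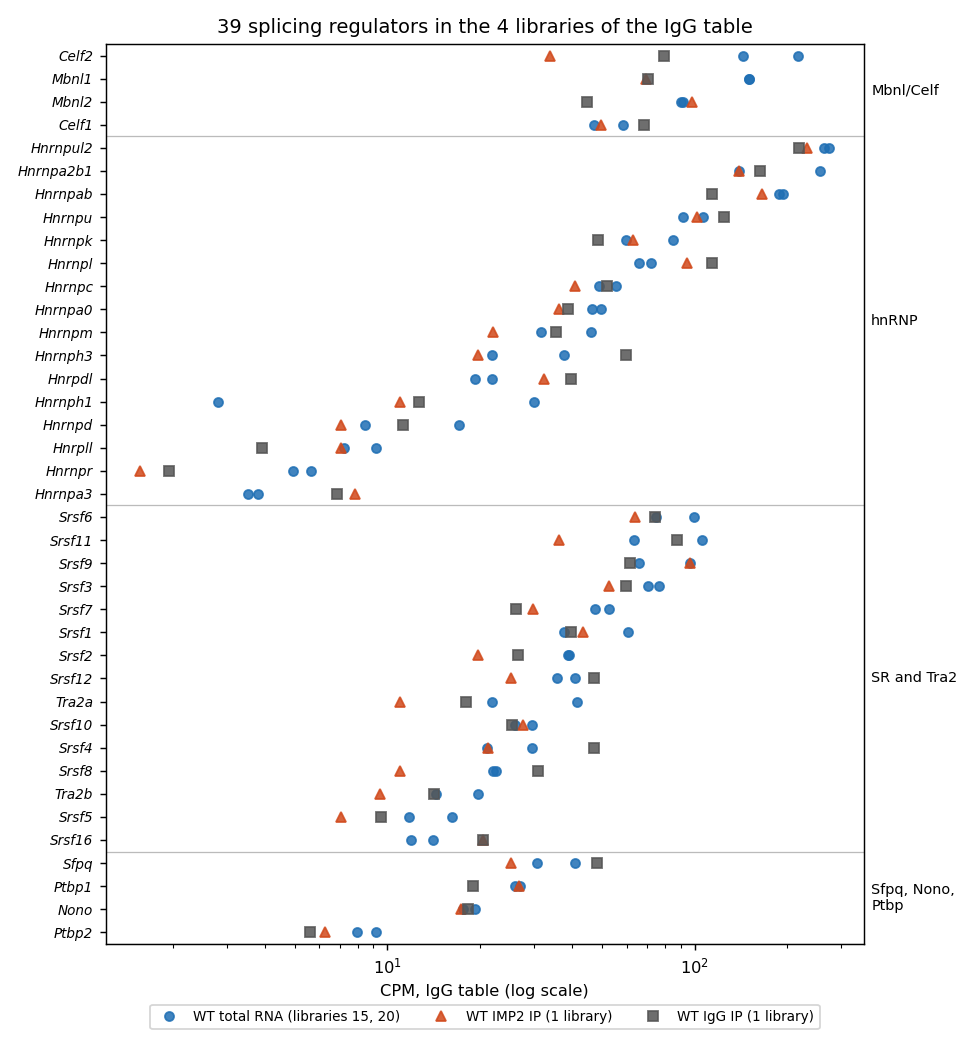
CPM (horizontal axis, log scale) of the 39 members in the 4 libraries of the IgG table, grouped by family and ordered within a family by mean CPM in total RNA, which is not per transcript length. Blue circles are the 2 total RNA libraries, the triangle the IMP2 and the square the IgG immunoprecipitate. Celf2 is lowest in the IMP2 precipitate, and Mbnl2 is lowest in the IgG precipitate.

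Of the Mbnl and Celf families, Celf2 was the member with the largest departure. Celf2, which binds GU-rich RNA and opposes Mbnl proteins at many exons, had 309 and 379 counts in total RNA, 326 in the IgG and 43 in the IMP2 precipitate. These are 217.5 and 144 CPM, 79.6 CPM and 33.8 CPM. Celf2 fell in the IMP2 precipitate against total RNA by 2.41 on the log2 scale (SE 0.48, edgeR adjusted p = 0.00056). It also passed under the 8 other settings run with all libraries, DESeq2 and limma-voom among them, at an adjusted p of 0.000328 to 0.0153. It was the single member of 39 that passed the threshold, which 0.859% of genes passed as lower and 0.0446% as higher. The IgG precipitate was also below both total RNA libraries, at log2 -1.18 ± 0.42 (edgeR adjusted p = 0.124). Endothelial markers were also lower in both precipitates than in total RNA, over the 2 of 3 listed, Pecam1 and Cdh5. Their sums were 105.6 and 91.7 CPM in total RNA, 51.9 CPM with IMP2 and 48.6 CPM with IgG. These sums were near each other with IMP2 and IgG, where Celf2 was at 33.8 CPM and 79.6 CPM. The macrophage marker Csf1r, 1 of 3 listed, had 9.15 and 9.10 CPM in total RNA. It had 3.93 CPM with IMP2 and 8.55 CPM with IgG, so it too was lower with IMP2. Of 3 neuron markers, 0 are listed. The part of these cells in the Celf2 value was not tested. IMP2 against IgG was log2 -1.23, with a CPM ratio of 0.425 and a 95% counting interval of 0.302 to 0.585. Such intervals cover counting error only. All 8 listed Celf2 transcripts had nearly the same counts, so forms of the gene were not resolved.

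Mbnl2 had 90.1 and 91.4 CPM in total RNA, 98.3 CPM in the IMP2 precipitate and 44.7 CPM in the IgG precipitate. It was the member highest in IMP2 relative to IgG, at log2 1.14, a CPM ratio of 2.20 (counting interval 1.74 to 2.78). It was also the single member at least 2-fold higher there, against 5.48% of all genes, and its edgeR adjusted p was 0.683. With library-size scaling its log2 was 0.95, under 2-fold. Against total RNA, IMP2 was at log2 0.11 and IgG at -1.02. The IMP2 value had the other sign in the knockout table, at log2 -0.46 ± 0.18 in the wild type. There both precipitates lay below both total RNA libraries, while here the single IMP2 precipitate lay above both. Muscle marker sums were 16440 and 9038 CPM in total RNA, 9023 CPM in the IMP2 and 5940 CPM in the IgG precipitate. The sum was thus lowest with IgG, but not every marker was. Myh4 was at 601 CPM with IgG, above 417 CPM with IMP2 and 452 CPM in total RNA library 20. Tcap was at 1594 CPM with IgG, above 1354 CPM in library 20. The other markers were each lowest with IgG. The part of muscle RNA in the Mbnl2 value was not tested.

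Mbnl1 was lower in both precipitates, with 149.9 and 150.5 CPM in total RNA, 69.2 CPM with IMP2 and 70.6 CPM with IgG. The log2 values against total RNA were -1.12 and -1.09, and IMP2 against IgG was -0.03, a CPM ratio of 0.980 (counting interval 0.763 to 1.25). Celf1, a regulator of splicing and of mRNA decay through GU-rich elements, had 58.4 and 47.0 CPM in total RNA, 49.5 CPM with IMP2 and 68.1 CPM with IgG. The family thus held the highest member of IMP2 against IgG and one of the lowest.

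The fit over both tables lends the IgG library the spread of the replicated groups, for the 1189 genes of both. There the IgG precipitate was lower than wild-type total RNA for Mbnl2, by log2 -0.96 ± 0.24 (edgeR adjusted p = 0.0212), and for Mbnl1, by -0.83 ± 0.25 (0.0368). Hnrnpl was higher with IgG by log2 0.86 ± 0.20 (adjusted p = 0.0140). All 3 members passed the threshold, against 11.6% of genes as higher and 11.9% as lower. The Mbnl1 call was lost with upper-quartile scaling (0.0760) and without library 15, 16 or 20 (0.065, 0.0507 and 0.0814). The split of all calls moved from 138 higher and 142 lower to 204 and 93 with upper-quartile scaling. IMP2 against IgG in this fit was log2 0.67 ± 0.26 for Mbnl2 (adjusted p = 0.194), -0.59 ± 0.21 for Hnrnpl (0.183) and 0.01 ± 0.27 for Mbnl1 (0.993). No member passed, and 0.336% of genes did as higher and 1.26% as lower.

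The 16 hnRNPs package precursor RNA and include repressors of exons. The 3 with the most CPM in total RNA were Hnrnpul2, Hnrnpa2b1 and Hnrnpab. Hnrnpul2, a relative of the scaffold protein hnRNP U, had 264 and 274 CPM in total RNA, 232 CPM with IMP2 and 218 CPM with IgG. Hnrnpa2b1, which sorts RNAs for transport and binds miRNA precursors, had 139 and 256 CPM, then 139 CPM and 163 CPM. Hnrnpab, a partner in mRNA transport and editing, had 187 and 193 CPM, then 166 CPM with IMP2 and 114 CPM with IgG. Its IMP2 to IgG ratio was 1.46 (counting interval 1.23 to 1.72), log2 0.54.

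Hnrnpl was higher in the precipitates than in total RNA, the direction it had in the knockout table. There the wild-type precipitates and total RNA overlapped, at log2 0.23 ± 0.19, and only the knockout precipitates lay above both total RNA libraries. In the IgG table no such overlap was seen. Hnrnpl had 71.8 and 66.0 CPM in total RNA, 94.3 CPM with IMP2 and 114 CPM with IgG, both above both total RNA libraries. The log2 values were 0.46 for IMP2 and 0.73 for IgG against total RNA, and -0.27 for IMP2 against IgG. Hnrpdl, the symbol used for the hnRNP D-like gene Hnrnpdl, had 21.8 and 19.3 CPM, then 32.2 CPM and 39.6 CPM, with log2 values of 0.65 and 0.95. Hnrnpa3, an hnRNP of the A and B type, had 5 and 10 counts in total RNA, 10 with IMP2 and 28 with IgG. Aasdh has the same counts in every library, so they cannot be assigned to Hnrnpa3 alone. Its log2 of 1.08 made it the single member at least 2-fold higher with IMP2 than in total RNA (4.34% of genes), with a counting interval of 0.855 to 5.06 around a CPM ratio of 2.13.

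Hnrnph3, an hnRNP of the G-tract-binding H and F family, was the member lowest in IMP2 relative to IgG. It had 21.8 and 37.5 CPM in total RNA, 19.7 CPM with IMP2 and 59.8 CPM with IgG. IMP2 against IgG was log2 -1.60, a CPM ratio of 0.329 (counting interval 0.209 to 0.497, edgeR adjusted p = 0.417). IgG against total RNA was log2 0.98, the highest of the members in that comparison. Its relative Hnrnph1 could not be placed, since its total RNA libraries held 4 and 79 counts, or 2.82 and 29.9 CPM, around 11.01 CPM with IMP2 and 12.7 CPM with IgG.

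Low counts limited several other hnRNPs. Hnrnpr, which binds mRNA in neurons and other cells, had 8 and 13 counts in total RNA, 2 with IMP2 and 8 with IgG. Its log2 values were -1.70 and -1.40 against total RNA, with counting intervals of 0.0345 to 1.24 and 0.145 to 0.887 around CPM ratios of 0.304 and 0.378. Hnrpll, the hnRNP L-like gene Hnrnpll that switches CD45 splicing in T cells, had 13 and 19 counts, then 9 and 16, with log2 0.85 for IMP2 against IgG and -1.03 for IgG against total RNA. Its IMP2 to IgG ratio of 1.81 had an interval of 0.705 to 4.35, too wide to show a difference. Of the other hnRNPs, Hnrnpk was at log2 0.37 in IMP2 against IgG, and Hnrnpa0, Hnrnpu, Hnrnpc, Hnrnpd and Hnrnpm lay between -0.09 and -0.68. The interval left out 1 for Hnrnpu (ratio 0.813) and Hnrnpm (0.622).

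The genes under Srsf and Tra2 symbols had a median log2 of -0.43 over 15 in IMP2 against IgG. These take in Srsf8, Srsf12 and Srsf16, which RefSeq calls Sfswap, Srek1 and Clasrp, at log2 -1.49, -0.90 and -0.005. A median without them was not computed. The medians were -0.25 over the hnRNPs, -0.24 over the Mbnl and Celf genes and 0.04 over Sfpq, Nono, Ptbp1 and Ptbp2. The SR members with the most CPM in total RNA were Srsf6, Srsf11 and Srsf9. Srsf6 had 99.3 and 75.1 CPM, then 63.7 CPM with IMP2 and 74.2 CPM with IgG, at log2 -0.22 for IMP2 against IgG. Srsf11, also called p54 and known from neuronal microexons, had 63.4 and 105.4 CPM, 36.2 CPM with IMP2 and 87.4 CPM with IgG. It was thus below both total RNA libraries with IMP2 (log2 -1.23) and between them with IgG (log2 0.04). Its ratio of IMP2 to IgG was 0.414 (counting interval 0.298 to 0.564), log2 -1.27.

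Srsf9 went the other way. It had 96.5 and 66.0 CPM in total RNA, 96.7 CPM with IMP2 and 61.5 CPM with IgG, and a ratio of IMP2 to IgG of 1.57 (counting interval 1.26 to 1.96), log2 0.65. Srsf4 had 21.1 and 29.6 CPM, 21.2 CPM with IMP2 and 46.9 CPM with IgG, at log2 -1.14 for IMP2 against IgG and 0.87 for IgG against total RNA. The symbols Srsf8, Srsf12 and Srsf16 are names the table gives to genes that RefSeq calls Sfswap, Srek1 and Clasrp. Sfswap, the mouse relative of a fly splicing regulator, had 22.5 and 22.0 CPM, 11.01 CPM with IMP2 and 31.0 CPM with IgG, at log2 -1.49 for IMP2 against IgG. Srek1 was at -0.90 in the same comparison, and its counting interval also left out 1 (ratio 0.537). Clasrp had 12.0 and 14.0 CPM in total RNA and stood at 20.4 CPM with IMP2 and 20.5 CPM with IgG, above both total RNA libraries in each, at a ratio of 0.997 (counting interval 0.616 to 1.56).

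Tra2a, which binds GAA-rich enhancers, had 21.8 and 41.3 CPM in total RNA, 11.01 CPM with IMP2 and 18.1 CPM with IgG. Its log2 values against total RNA were -1.54 and -0.83, and both precipitates lay below both total RNA libraries. Tra2b had 19.7 and 14.4 CPM, then 9.43 CPM and 14.2 CPM. The remaining SR genes, Srsf1, Srsf2, Srsf3, Srsf5, Srsf7 and Srsf10, lay between log2 -0.44 and 0.19 in IMP2 against IgG, with intervals that held 1. Of these, Srsf7, which also aids export of mRNA, was low in both precipitates, at 52.8 and 47.4 CPM in total RNA, 29.9 CPM with IMP2 and 26.1 CPM with IgG. Srsf2, a nuclear SR protein, was also below both total RNA libraries in each precipitate, at 38.7 and 39.04 CPM, then 19.7 CPM with IMP2 and 26.6 CPM with IgG.

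Sfpq and Nono pair in paraspeckles, and Ptbp1 and Ptbp2 repress exons by binding pyrimidine tracts. Sfpq had 40.8 and 30.7 CPM in total RNA, 25.2 CPM with IMP2 and 48.1 CPM with IgG, at log2 -0.93 for IMP2 against IgG (ratio 0.523, counting interval 0.348 to 0.763). Nono, its partner, had 17.6 and 19.3 CPM, then 17.3 CPM and 18.3 CPM, at a ratio of IMP2 to IgG of 0.944 (counting interval 0.559 to 1.54). Ptbp1 had 26.1 and 26.9 CPM, 26.7 CPM with IMP2 and 19.1 CPM with IgG, at log2 0.49 for IMP2 against IgG (interval of the ratio 0.909 to 2.13). Ptbp2, the neuronal relative, had 8 to 23 counts per library and a log2 of 0.16.

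**Figure D4:**
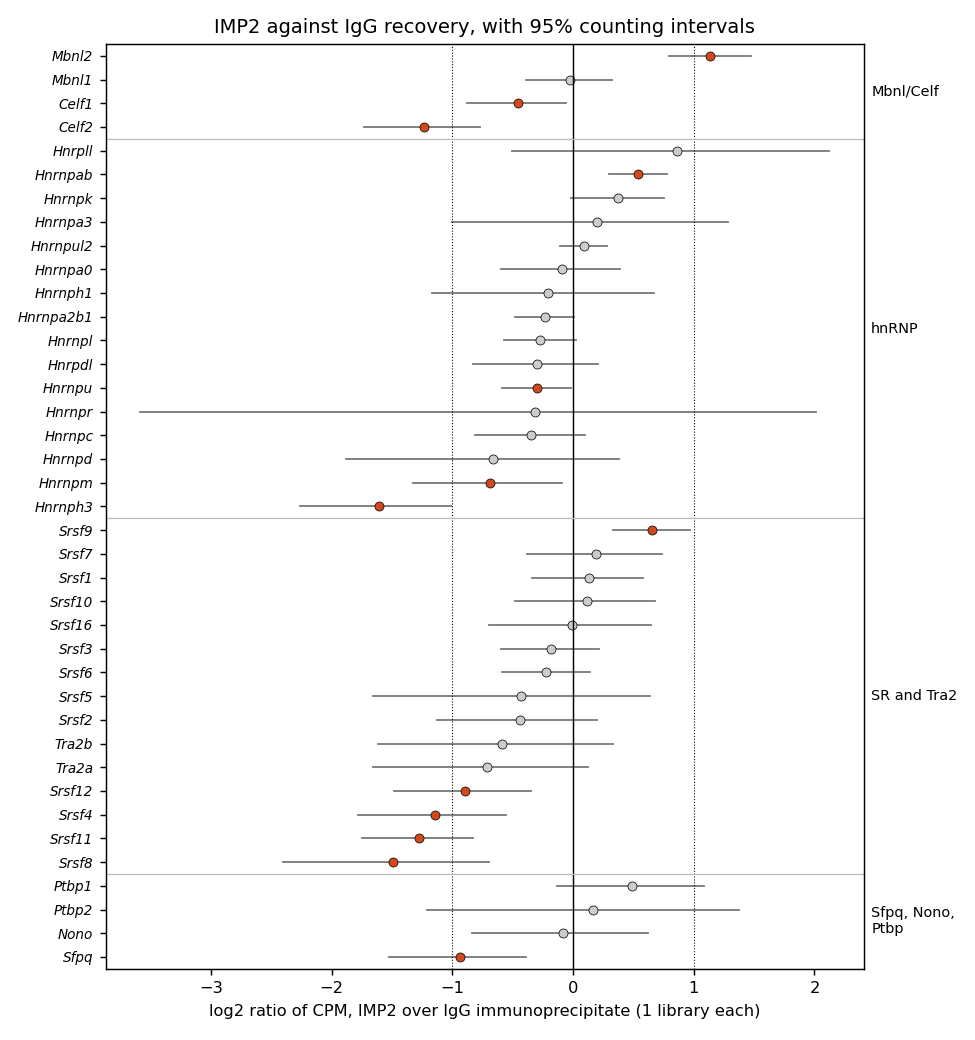
Log2 ratio of CPM between the IMP2 and IgG immunoprecipitates (horizontal axis) for the 39 members by family, 1 library each. Lines are 95% counting intervals, orange points are the 13 members whose interval leaves out a ratio of 1, and dotted lines mark 2-fold. Mbnl2 stands highest at a ratio of 2.20 and Hnrnph3 lowest at 0.329.

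Over all 39 members, the counts past 2-fold stayed near the shares of all genes, but the medians of the members were lower. A larger share of members than of all genes lay below both total RNA libraries, most so with IMP2. In IMP2 against IgG, 1 member was at least 2-fold higher (5.48% of genes) and 5 were at least 2-fold lower (11.3%): Hnrnph3, Srsf8, Srsf11, Celf2 and Srsf4. The median log2 was -0.23 for the members and 0.00 for all genes, and no member passed the edgeR adjusted threshold, which 0.0558% of genes passed as higher and 0.178% as lower. At an unadjusted p under 0.05 there were 1 member higher (2.5% of genes) and 5 lower (3.78%), the same 6 as those past 2-fold. In IMP2 against total RNA, 6 members were at least 2-fold lower (10.9% of genes): Celf2, Hnrnpr, Tra2a, Srsf11, Mbnl1 and Srsf8. Of the 39, 25 lay below both total RNA libraries (35.6% of genes) and 6 above both (34.2%), with a median of log2 -0.43 against -0.03 for all genes. At an unadjusted p under 0.05, 0 were higher (2.59%) and 4 lower (5.31%). In IgG against total RNA, 5 members were at least 2-fold lower (9.64%): Hnrnpr, Celf2, Mbnl1, Hnrpll and Mbnl2. None was at least 2-fold higher (7.04%), 20 lay below both total RNA libraries (36.3%) and 11 above both (37.9%), with a median of log2 -0.28 against -0.01. No member passed the edgeR adjusted threshold there, which 0.48% of genes passed as higher and 1.53% as lower, and 2 were higher (5.84%) and 4 lower (8.58%) at an unadjusted p under 0.05. DESeq2 and limma-voom called no member in either comparison with IgG. Library-size scaling moved the split of called genes in IgG against total RNA from 43 higher and 137 lower to 101 and 95. It also turned the balance of members past 2-fold there, from 0 higher and 5 lower to 4 and 2.

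The other genes of splicing gave a mixed order in IMP2 against IgG, and none of them passed the adjusted threshold. Of 44 genes of the core spliceosome, 38 were tested, with a median log2 of -0.04, 2 at least 2-fold higher and 5 at least 2-fold lower. Snrpd2, a core protein of the small nuclear ribonucleoproteins, was at log2 1.09 and Lsm2, of the U6 ring, at 1.03, while Sf3b3 of the U2 particle was at -1.50. Prpf3 and Prpf4, both of the tri-snRNP, were at -1.27. Of 41 other RNA-binding regulators 34 were tested, with a median of -0.53, 1 at least 2-fold higher and 7 at least 2-fold lower. Nova1 and Nova2, known as neuronal regulators, were at 1.22 and 0.86, and Luc7l2 of the U1 particle and Syncrip at -1.66 and -1.44. Of 7 kinases of SR proteins 6 were tested, with a median of -1.05 and 3 at least 2-fold lower, from Srpk1 at 0.29 to Srpk2 at -1.33 and Clk1 at -1.22. Against total RNA, some genes of these lists did pass the edgeR adjusted threshold in the IgG table. Elavl1, which binds AU-rich elements and stabilizes mRNAs, was lower with IMP2 by log2 -2.52 (adjusted p = 0.000913) and with IgG by -2.04 (0.00277). Ybx1, a major packaging protein of cytoplasmic mRNA, was lower by -1.86 (0.00822) and -2.33 (0.000377). Prpf8, the core protein of the U5 particle, was higher with IgG at log2 1.86 (0.0254). A call such as that of Celf2 with IMP2 was thus also made outside the members. Of the same lists, 6 core and 2 other regulators were tested in the 5 comparisons of the knockout table, and none passed the threshold. In the fit over both tables, Snrnp70 of the U1 particle and Sf3b2 of the U2 particle were higher with IgG than in total RNA, at log2 0.90 and 0.60 (edgeR adjusted p = 0.0250 and 0.0334).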

How the data were processed

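The 12 brown fat libraries were analysed. The authors deposited unscaled whole-number read counts for RefSeq transcripts. The submitters' processing notes name TopHat2 2.0.8, Cufflinks 2.1.1 and the mm10 build, while counting tool and use of strand are not given in the sources. Of 1579 and 12840 transcripts, 117 and 835 had no symbol, and RefSeq (GRCm38.p6) named 114 and 813 by accession. The 3 and 22 left unnamed took 8.65 to 29.2% and 7.39 to 15.8% of listed counts and were kept out.

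A gene was represented by the transcript of highest summed count among those that carry its symbol in the file, or, where none does, among those named by RefSeq. Counts were scaled by TMM and tested with edgeR 4.0.16 in R 4.3.3, with Benjamini-Hochberg adjustment over all genes tested and a threshold of 0.05. The fits had 4 (knockout table), 1 (IgG table) and 6 (both) residual degrees of freedom, with a biological coefficient of variation of 15.3, 25.1 and 16.3%. Ratio intervals are exact binomial at 95%. Methods were tested on simulated counts. Alternatives were other scalings, filters, DESeq2 1.42.0, limma-voom (limma 3.58.1), every transcript as a row, only the groups compared, and each library left out.

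Members and gene lists were chosen with earlier results of these data known. Named by rule were the members of the knockout table and, in the IgG table, Mbnl2 and the 3 with the most CPM in total RNA per family. The rule also took the 5 highest and lowest per comparison, and members with several transcripts or with counts equal to another gene's. The other members were named beside these. From each related list the rule took up to 4 by IMP2 against IgG, with ties. Related genes that passed the adjusted threshold against total RNA were named because they passed. The symbol Hnrnpa3 has the same low counts as Aasdh. A planned description of protein sequences was not run. No sample column was left unused.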

Additional observations from a re-analysis of the deposited data

How the results depend on the processing

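No paired analysis was run, because the sample numbers in the labels are not shared between groups. Whether a precipitate and a total RNA library stem from the same tissue is not in the labels, and the tests treat them as independent. Precision is limited by 2 libraries a group in the knockout table, by single precipitates in the IgG table and by counts as low as 2 there. Leaving out library 15 or 20 leaves the IgG table with no residual degree of freedom and gives values only, and leaving out 25 or 26 gives none for its own comparisons. Of 1607 member values under an alternative, 53 had the other sign, over 28 of 138 results, of which 0 had passed the threshold. Among these Hnrnph1 without library 20 went from log2 -0.67 to 1.94 (IMP2 against total RNA) and from -0.47 to 2.16 (IgG), and the others had a size of at most 0.29. Library size alone moved the median of all genes by -0.18 in IMP2 against IgG, 0.17 in IgG against total RNA and 0.13 in the knockout precipitate, and the upper quartile by 0.14 in the wild-type and 0.17 in the knockout precipitate. The cause of the shifts below was not tested.

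DESeq2 called Mbnl2 in knockout against wild-type total RNA (1 member lower in place of 0) and between the precipitates (1 higher in place of 0). Without single libraries Mbnl2 ran from log2 -1.21 to -0.80 and from 0.60 to 0.97, at edgeR adjusted p of 0.150 to 0.643 and 0.156 to 0.515. In the knockout precipitate against total RNA, 1 member (Hnrnpl) was called higher with DESeq2, library size or upper quartile. In the wild-type precipitate 0 members were called lower with library size or upper quartile, and 0 to 1 without single libraries. IgG against total RNA over both tables kept 1 member lower with upper quartile and 1 to 2 without single libraries. In the IgG table, members at least 2-fold higher numbered 4 with library size, 2 with upper quartile and 0 to 3 without single libraries in IgG against total RNA, and those at least 2-fold lower 2 and 3. IMP2 against IgG had 0 members 2-fold higher with library size, and IMP2 against total RNA had 1 to 2 without single libraries.

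Signs turned for small values. Hnrnpl in knockout against wild-type total RNA was 0.0055 with upper quartile and -0.22 to 0.17 without single libraries. Without library 17 its interaction was 0.0082 and without library 21 its difference between precipitates 0.0075 (ranges -0.40 to 0.0082 and -0.37 to 0.0075). Mbnl1 between precipitates was -0.072 without library 23 (range -0.072 to 0.20). Mbnl1 in IMP2 against IgG over both tables was -0.018 with DESeq2 size factors, -0.028 with upper quartile, -0.030 with library size, -0.011 with DESeq2, -0.031 with every transcript as a row, and -0.071 to 0.37 without single libraries.

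Counts of all genes called varied more. In the wild-type precipitate against total RNA, 119 higher became 90 to 214 and 148 lower 95 to 201, or 32 to 115 and 61 to 150 without single libraries. In the knockout precipitate 126 and 187 became 124 to 273 and 130 to 239, or 47 to 138 and 87 to 188. Over both tables, the counts of 138 and 142 in IgG against total RNA became 134 to 204 and 93 to 208. Those of 4 and 15 in IMP2 against IgG became up to 50 and 58 with DESeq2, and 0 to 16 and 0 to 34 without single libraries. In the IgG table, IMP2 against total RNA had 2 to 7 higher and 20 to 88 lower, IgG against total RNA 2 to 101 and 34 to 156, and IMP2 against IgG 2 to 6 and 2 to 27. Knockout against wild-type total RNA had 1 gene lower with only the groups compared.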

Other observations

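Rbfox2, an exon regulator that binds GCAUG, is listed in the IgG table under its older symbol Rbm9, which the choice by symbol does not take in. It had 24.6 and 21.6 CPM in total RNA, 30.7 CPM in the IMP2 precipitate and 27.6 CPM in the IgG precipitate. Its log2 values were 0.41 for IMP2 and 0.26 for IgG against total RNA and 0.15 for IMP2 against IgG (edgeR adjusted p = 0.920, 0.846 and 0.986), and both precipitates lay above both total RNA libraries.

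Most listed transcripts of a member had nearly equal counts, as transcripts that share reads do, and 3 members had a transcript that stood apart. The second Hnrnpa2b1 transcript, NM_182650, held 38.9% and 26.2% of the count of the kept one in total RNA, 22.0% with IMP2 and 24.1% with IgG. The noncoding Sfpq transcript NR_045010 held 32.8% and 42.0% of the count of the coding one in total RNA, 46.9% with IMP2 and 72.1% with IgG. The second Srsf10 transcript, NM_001080387, held 8.11% and 7.69% in total RNA, 14.3% with IMP2 and 15.4% with IgG. These shares are descriptions of single libraries and were not tested.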
